A study of Mus musculus with 13 samples.

Results

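The genes described here are 10 chaperones and folding factors of the endoplasmic reticulum (ER): Hspa5, Hsp90b1, Hyou1, Dnajb9, Pdia3, Pdia4, Pdia6, Sdf2l1, Creld2 and Manf. They were chosen by name, as known targets of the ATF6 and XBP1 arms of the unfolded protein response, with earlier results of these data known. Counts over the list therefore describe these mice and are no independent test. All 10 were found among the 53392 genes of the count table. All 10 also had enough counts to be among the 14317 genes tested, the lowest count in any mouse being 129, for Sdf2l1.

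RNA-seq of whole liver was done on 13 young adult female mice, all fed a Lieber-DeCarli liquid diet with 28% of calories from ethanol for 4 weeks. Every mouse, controls included, was homozygous for Rosa26-loxP-stop-loxP-rtTA and carried Albumin-Cre, which limits the Dox-dependent activator rtTA to hepatocytes. The ASAH- Etoh-Dox group (4 mice) lacked the TRE-ASAH1 transgene and ate Dox. The ASAH+ Etoh-Dox group (5 mice) carried TRE-ASAH1 and ate Dox, so that acid ceramidase was induced, and the ASAH+ Etoh group (4 mice) carried TRE-ASAH1 without Dox. For ASAH+ mice the sample titles name the opposite Dox treatment from the descriptions and the induction labels, and the groups follow the latter. No liver without ethanol is among the 13 samples. Total counts were 17819486 to 35358711 per mouse, with a median of 24454043. The 8 hepatocyte markers were abundant in every mouse, with a summed level of 94187 to 143977 CPM in the 13 mice, Alb being the most abundant. CPM is a gene's counts scaled to the TMM-adjusted library total.

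The ER folds secreted and membrane proteins, and hepatocytes secrete large amounts of protein into the blood. When unfolded protein builds up there, the chaperone BiP, the product of Hspa5, leaves the sensors ATF6, IRE1 and PERK. ATF6 is then moved to the Golgi and cleaved to a transcription factor, while IRE1 splices the Xbp1 mRNA so that it encodes an active factor, and both factors raise transcription of chaperones and degradation genes.

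Both factors are known to act through the ER stress response element, in which CCAAT and CCACG are separated by 9 bases. The letters CCAAT, 9 of any base (N), CCACG were searched on both strands in RefSeq promoter windows (GRCm38.p6) of 250 bases before to 50 bases after each gene's start. They were present in 39 of 32851 windows (0.119%), whereas CCAAT alone was in 37.4% and CCACG alone in 32.8%. Windows were available for 8 of the 10 chaperones and held the element for 4 of them, Hspa5, Hsp90b1, Pdia6 and Creld2. Hyou1 and Manf had no window, and the windows of Dnajb9, Pdia3, Pdia4 and Sdf2l1 did not hold these letters. The elements are shown because the genes were chosen as targets of these factors. Each is printed in the orientation of the motif with 5 bases on either side and with CCAAT and CCACG in capitals. A match describes the letters and is no measurement of binding. Positions are counted from the RefSeq start, which is the start of the GENCODE gene for Creld2 but lies downstream of it by 120 bases for Hspa5, 65 for Hsp90b1 and 44 for Pdia6. On the GENCODE annotation the Hspa5 element therefore lies 55 to 73 bases after the gene start, outside the coding sequence in an exon of 1 of 6 transcripts, whereas the elements of Hsp90b1, Pdia6 and Creld2 lie upstream of the gene.
Hspa5, chr2:34772020-34772048, plus strand, element at -65 to -47: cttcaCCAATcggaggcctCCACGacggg
Pdia6, chr12:17266486-17266514, plus strand, element at -98 to -80: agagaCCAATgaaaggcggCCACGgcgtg
Creld2, chr15:88819515-88819543, minus strand, element at -126 to -108: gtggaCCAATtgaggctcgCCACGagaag

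Hsp90b1 held 2 elements, at -212 to -194 on the strand of the gene and at -107 to -89 on the opposite strand. The 151 bases from -230 to -80 are shown on the strand of the gene (chr10:86705524-86705674, minus strand, GRCm38.p6). The capitals mark the motif letters, which read CGTGG and ATTGG for the element on the opposite strand.
Hsp90b1: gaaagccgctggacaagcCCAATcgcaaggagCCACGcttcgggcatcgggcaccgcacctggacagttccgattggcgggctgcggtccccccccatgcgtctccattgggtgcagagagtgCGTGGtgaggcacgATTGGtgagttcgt

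Counts assigned to Asah1 separated the groups as the induction labels do. Asah1 was at 48.7, 40.0, 53.7 and 55.0 CPM in ASAH- Etoh-Dox mice 1 to 4 and at 46.8, 44.2, 46.8 and 48.3 CPM in ASAH+ Etoh mice 1 to 4. In ASAH+ Etoh-Dox mice 1 to 5 Asah1 was at 10313.5, 9668, 15134, 12725 and 15935 CPM. Replicates 3, 4 and 5 were thus the highest of the induced mice, and the part of the Asah1 level in the chaperone values was not tested. Asah1 rose by 8.01 on the log2 scale (SE 0.20) against ASAH- Etoh-Dox and by 8.10 (SE 0.21) against ASAH+ Etoh (edgeR, adjusted p = 1.24e-11 and 1.13e-11). It differed by 0.09 (SE 0.15) between the uninduced groups (edgeR, adjusted p = 0.906).

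Levels of different genes were compared as CPM per kilobase of the principal transcript, averaged over the 13 mice. Hsp90b1 was the most abundant chaperone at 278 ± 44.5 CPM per kilobase (SD, n = 13), above Hspa5 in 13 of 13 mice. Hspa5 (136 ± 50.7) and Pdia3 (129 ± 32.9) did not differ beyond their spread, Hspa5 being above Pdia3 in 7 of 13 mice. Pdia6 (97.9 ± 34.98) and Pdia4 (71.5 ± 20.4) followed, and Pdia6 was above Pdia4 in 13 of 13 mice. Hyou1 (22.5 ± 9.61) and Dnajb9 (19.9 ± 2.14) were close, Hyou1 being higher in 7 of 13 mice. Manf (14.1 ± 6.70), Creld2 (11.3 ± 4.57) and Sdf2l1 (9.60 ± 4.99) were lowest, with overlapping spreads. Together the 10 genes took 0.158% to 0.323% of the counts of a mouse.

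**Figure D1:**
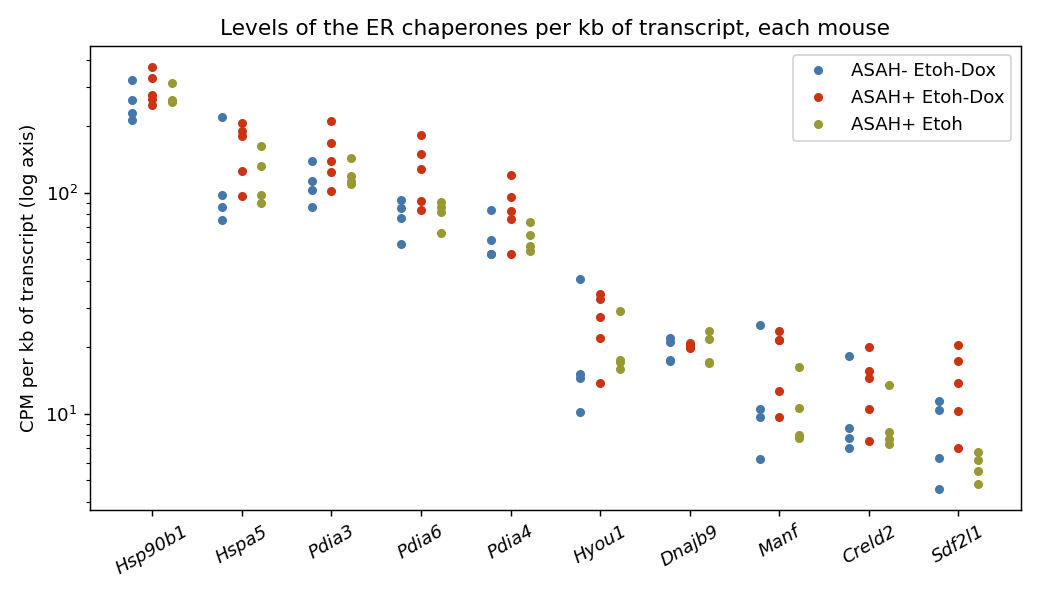
Level of each ER chaperone in CPM per kilobase of principal transcript, on a log axis, in each of the 13 mice by group. Over the 13 mice Hsp90b1 lies highest with a mean of 278, and Sdf2l1 lowest with a mean of 9.60. Within ASAH+ Etoh-Dox the lowest mean was that of Creld2 (13.6), beside 13.8 for Sdf2l1.

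The general chaperones are Hspa5, the Hsp70 of the ER lumen, Hsp90b1 (GRP94), its Hsp90, and Hyou1, which exchanges nucleotide on BiP. Hspa5 (ENSMUSG00000026864, chr2:34771970-34777547, plus strand, GRCm38) was at 811, 317, 360.3 and 278 CPM in ASAH- Etoh-Dox mice 1 to 4. In ASAH+ Etoh-Dox mice 1 to 5 Hspa5 was at 462, 356, 703, 759 and 662 CPM, and in ASAH+ Etoh mice 1 to 4 at 601, 329, 358 and 486 CPM. The highest liver of all was thus an ASAH- Etoh-Dox mouse, replicate 1, and the 3 groups overlapped. Mean Hspa5 was 589 ± 171 CPM (SD, n = 5) in ASAH+ Etoh-Dox, 441 ± 249 (n = 4) in ASAH- Etoh-Dox and 443 ± 125 (n = 4) in ASAH+ Etoh.

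Hyou1 was at 183, 65.3, 67.9 and 45.6 CPM in ASAH- Etoh-Dox mice 1 to 4, at 99.1, 62.1, 123, 157 and 149 CPM in ASAH+ Etoh-Dox mice 1 to 5, and at 131, 77.2, 71.8 and 78.9 CPM in ASAH+ Etoh mice 1 to 4. As for Hspa5, replicate 1 was the highest ASAH- Etoh-Dox mouse and the highest ASAH+ Etoh mouse. Hsp90b1 varied less, from 603 to 1048 CPM, and was highest in replicate 3 of ASAH+ Etoh-Dox. Its annotated exons share 632 bases with those of 1810014B01Rik, Gm15344 and Gm25745. Of these bases, 217 are shared with Gm15344 and Gm25745 on the same strand, and how counts were divided among these genes was not tested.

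The J-domain cochaperone Dnajb9 (ERdj4), which acts on BiP and restrains IRE1, was the steadiest of the 10 genes over the 13 mice. This did not hold within ASAH+ Etoh, where the SD of log2 CPM was 0.25 for Dnajb9. It was smaller there for Hsp90b1 (0.14), Pdia3 (0.18), Pdia4 (0.19), Pdia6 (0.21) and Sdf2l1 (0.21). Dnajb9 ranged from 41.7 to 58.4 CPM over the 13 mice, with means of 48.0 ± 6.03 (SD, n = 4) in ASAH- Etoh-Dox, 49.9 ± 1.12 (n = 5) in ASAH+ Etoh-Dox and 49.0 ± 8.39 (n = 4) in ASAH+ Etoh.

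Pdia3, Pdia4 and Pdia6 encode protein disulfide isomerases, which form and rearrange disulfide bonds, Pdia3 acting on glycoproteins with calnexin and calreticulin. Pdia6 (ENSMUSG00000020571, chr12:17266545-17284770, plus strand, GRCm38) was at 202, 186, 128 and 167 CPM in ASAH- Etoh-Dox mice 1 to 4 and at 199, 181, 397, 279 and 325 CPM in ASAH+ Etoh-Dox mice 1 to 5. In ASAH+ Etoh mice 1 to 4 Pdia6 was at 197, 178, 188 and 143 CPM. Replicates 3, 4 and 5 of ASAH+ Etoh-Dox were above every other mouse, while replicates 1 and 2 lay within the range of the uninduced groups. Pdia3 ranged from 240.0 to 584 CPM and Pdia4 from 127 to 290.1 CPM, both highest in ASAH+ Etoh-Dox replicate 3.

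Sdf2l1 encodes a lumenal partner of BiP and its J-domain cochaperones. Sdf2l1 (ENSMUSG00000022769, chr16:17130138-17132383, minus strand, GRCm38) was at 12.6, 11.5, 7.02 and 5.08 CPM in ASAH- Etoh-Dox mice 1 to 4 and at 11.4, 7.78, 22.6, 19.1 and 15.3 CPM in ASAH+ Etoh-Dox mice 1 to 5. In ASAH+ Etoh mice 1 to 4 Sdf2l1 was at 6.13, 5.33, 6.87 and 7.46 CPM. Every ASAH+ Etoh-Dox mouse lay above every ASAH+ Etoh mouse, by a narrow margin for replicate 2, whereas ASAH- Etoh-Dox overlapped both groups.

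Creld2 and Manf encode small ER proteins that are partly secreted under stress, Manf being a cofactor that prolongs the binding of BiP to its clients. Manf was at 56.8, 23.6, 21.7 and 14.0 CPM in ASAH- Etoh-Dox mice 1 to 4, at 28.4, 21.6, 48.4, 53.3 and 48.4 CPM in ASAH+ Etoh-Dox mice 1 to 5, and at 36.5, 17.9, 17.4 and 23.8 CPM in ASAH+ Etoh mice 1 to 4. The mice fell in an order close to that of Hspa5 (Pearson's r = 0.96, Spearman's rho = 0.92, over 13 mice), with ASAH- Etoh-Dox replicate 1 highest. Creld2 ranged from 9.58 to 27.5 CPM, with ASAH+ Etoh-Dox replicate 5 highest and ASAH- Etoh-Dox replicate 1 next at 24.97 CPM. The exons annotated for Manf share 326 bases with 4930524O07Rik, Dcaf1 and Rbm15b, 14 of them with Rbm15b on the same strand.

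**Figure D2:**
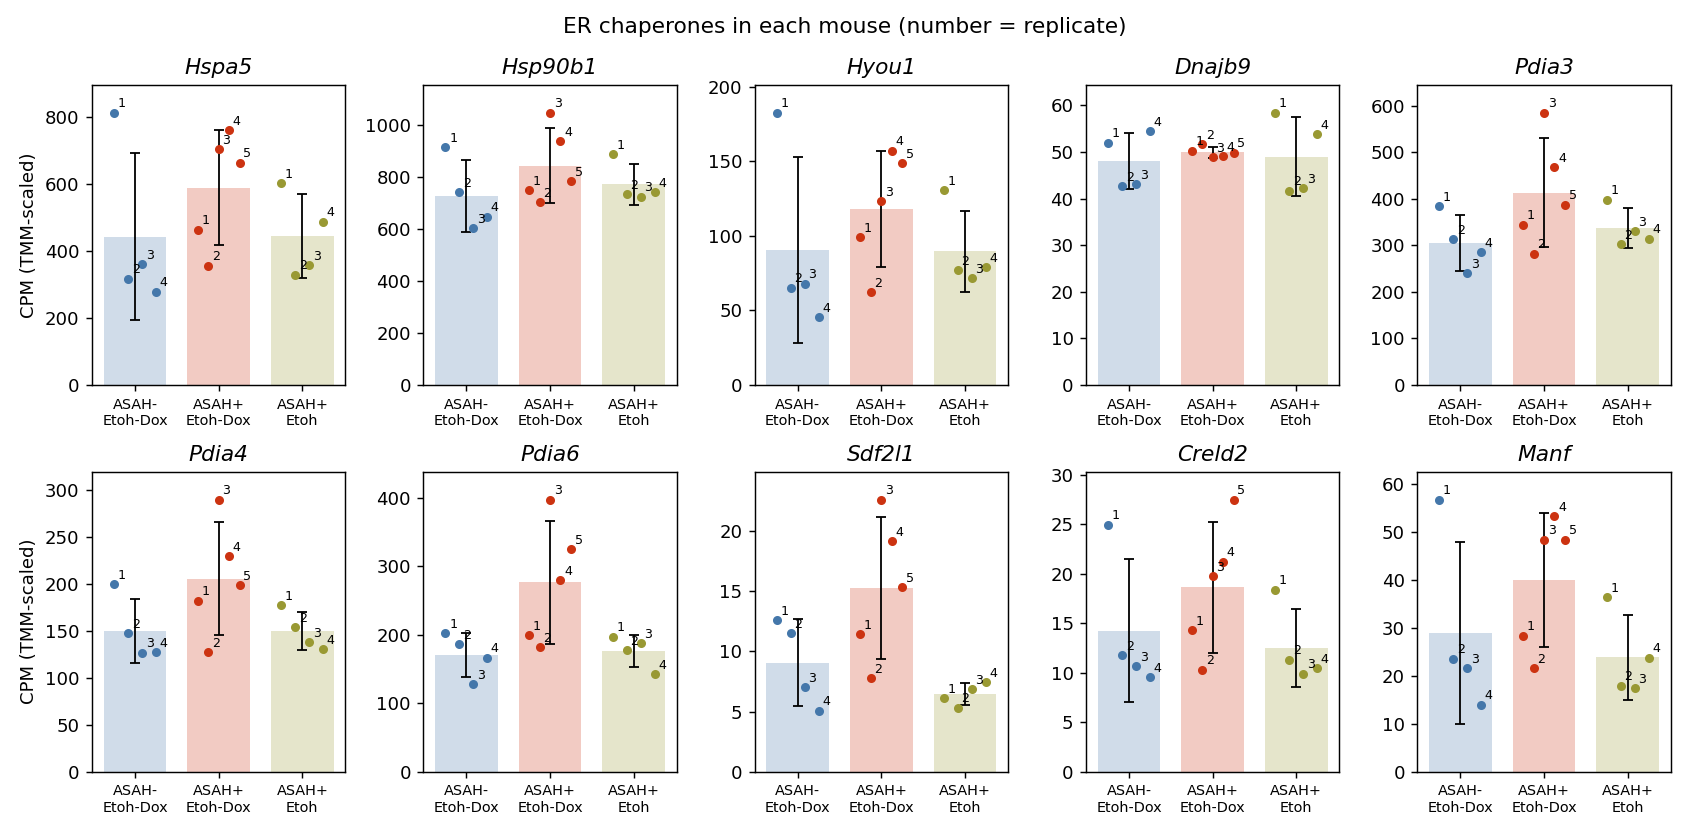
CPM of each of the 10 ER chaperones in each mouse (points), with group means (bars) and SD (error bars), for ASAH- Etoh-Dox (n = 4), ASAH+ Etoh-Dox (n = 5) and ASAH+ Etoh (n = 4). Sdf2l1 spans 7.78 to 22.6 CPM in ASAH+ Etoh-Dox and 5.33 to 7.46 CPM in ASAH+ Etoh, and Hspa5 overlaps between all groups.

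The study set up 3 groups to learn whether genotype or diet is the better control for transgene induction, and the comparisons share groups with each other. The comparison of ASAH+ Etoh-Dox with ASAH- Etoh-Dox holds Dox constant. All 10 chaperones had a higher fitted mean in the induced mice, with a median log2 fold change of 0.42, beside -0.0023 over all genes tested, of which 49.3% were higher. The highest values were those of Sdf2l1 (0.75, SE 0.31, 1.69-fold) and Pdia6 (0.70, SE 0.22, 1.62-fold), and the lowest was that of Dnajb9 (0.06, SE 0.11). The fold was 1.33 for Hspa5 (log2 0.41, SE 0.33), and its log2 value ran from 0.25 to 0.90 without 1 mouse. In bulk liver, fewer cells of a type and less RNA per cell cannot be told apart.

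By edgeR, 0 of 10 chaperones passed an adjusted p of 0.1 in this comparison, beside 0.0140 percent of all genes, and DESeq2 and limma-voom also called 0. At an unadjusted p under 0.05, 4 of 10 were higher (Pdia3, Pdia4, Pdia6 and Sdf2l1), beside 1.29 percent of all genes, and 0 of 10 had groups that did not overlap, beside 0.440 percent. Each of the 10 had an edgeR adjusted p of 1.00. Pdia6 was higher in 17 of 20 pairs of an induced and an ASAH- mouse (exact two-sided permutation p = 0.0714, the smallest possible being 0.00794). Sdf2l1 was higher in 16 of 20 pairs (exact p = 0.103) and Hspa5 in 14 of 20 (exact p = 0.246). These values hung on single mice. Without ASAH- Etoh-Dox replicate 1, 9 of 10 chaperones were higher at an unadjusted p under 0.05, beside 2.48 percent of all genes in the same fit, and the median log2 fold change was 0.80, still with 0 called by edgeR. The count was 2 without ASAH- Etoh-Dox replicate 2 (all genes 0.960 percent). It was 1 without ASAH- Etoh-Dox replicate 3 or 4 (1.08 and 2.41 percent) and without ASAH+ Etoh-Dox replicate 3 or 4 (1.65 and 0.822 percent). Without ASAH- Etoh-Dox replicate 4 the median was 0.24. With edgeR on these 2 groups alone the count was also 1 (all genes 1.19 percent), as it was with a block for replicate number (0.636 percent).

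**Figure D3:**
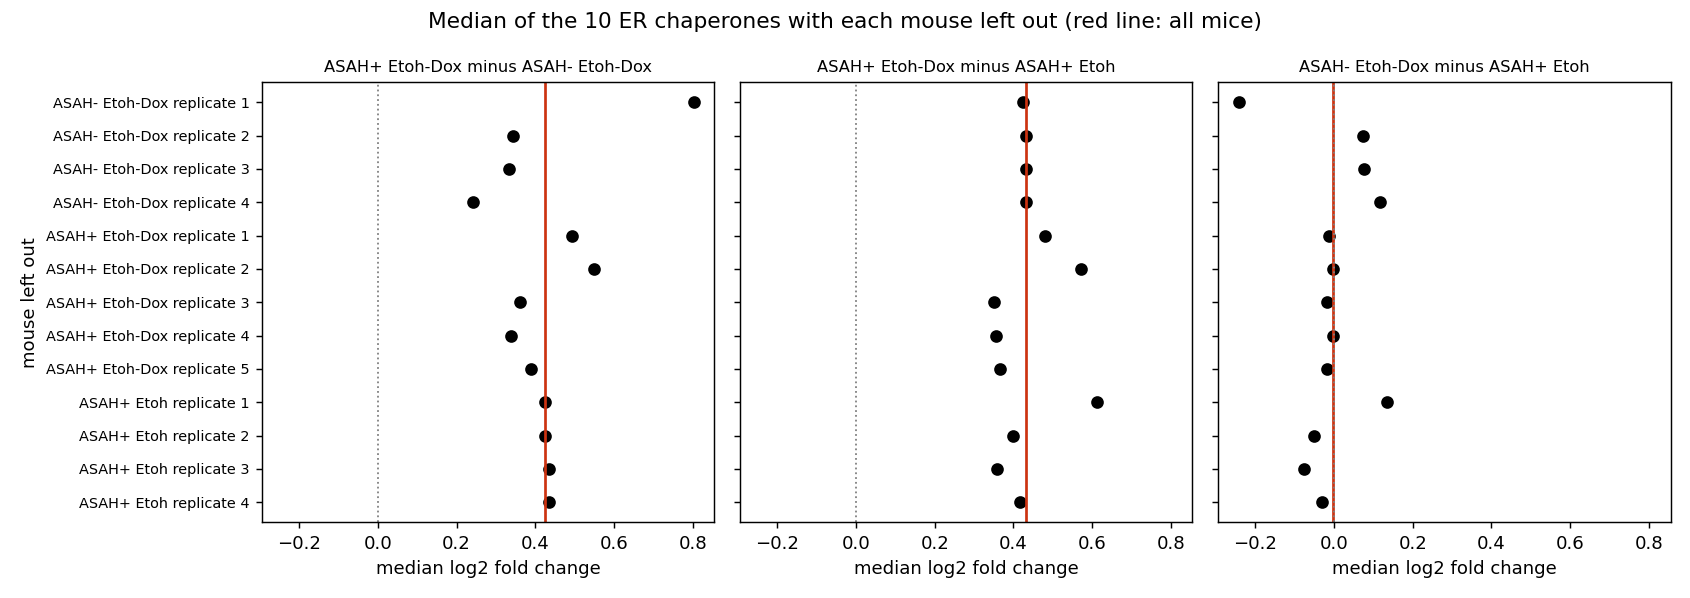
Median log2 fold change of the 10 ER chaperones with each of the 13 mice left out in turn (points), beside the value with all mice (red line), for the 3 comparisons. For ASAH+ Etoh-Dox minus ASAH- Etoh-Dox the points run from 0.24 to 0.80 around 0.42.

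The comparison of ASAH+ Etoh-Dox with ASAH+ Etoh holds genotype constant and differs in Dox. Again all 10 fitted means were higher in the induced mice, with a median log2 fold change of 0.43, beside 0.013 over all genes tested, of which 53.0% were higher. That median was 0.25 with the clock covariate described below. Sdf2l1 was 2.37-fold higher (log2 1.24, SE 0.32, 95% interval 0.55 to 1.94). Manf was 1.67-fold higher (log2 0.74, SE 0.41) and Pdia6 1.57-fold higher (log2 0.65, SE 0.22), while Dnajb9 was at a log2 difference of 0.03 (SE 0.11).

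By edgeR, 0 of 10 passed an adjusted p of 0.1, beside 0.0140 percent of all genes. At an unadjusted p under 0.05, 3 of 10 were higher (Pdia4, Pdia6 and Sdf2l1), beside 4.05 percent of all genes, and 1 of 10, Sdf2l1, had groups that did not overlap, beside 1.09 percent. Sdf2l1 was higher in 20 of 20 pairs (edgeR adjusted p = 0.473, exact two-sided permutation p = 0.0159), and Pdia6 in 18 of 20 (edgeR adjusted p = 0.546, exact p = 0.0714). DESeq2 differed from edgeR here and called 1 of 10, whichever samples it used. It also called more of all genes, 114 of 27379 with the mice of both groups alone, beside 2 of 14317 by edgeR. The 27379 are the genes with a p-value, and not all of them had an adjusted p. The count over all genes with all 13 mice is given below for DESeq2. With all 13 mice it called Pdia6 (DESeq2 adjusted p = 0.0844) and gave no adjusted p for 4 of 10, Sdf2l1 among them, and with the mice of both groups alone it called Sdf2l1 (DESeq2 adjusted p = 0.00427) and not Pdia6 (0.223). Over the settings tried, the lowest adjusted p was 0.00427 for Sdf2l1 and 0.0844 for Pdia6, and limma-voom called 0. The count at an unadjusted p under 0.05 was 6 without ASAH+ Etoh-Dox replicate 2, beside 4.83 percent of all genes, and 5 without ASAH+ Etoh replicate 1, beside 2.73 percent. With a block for replicate number it was 1, beside 3.04 percent.

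The comparison of ASAH- Etoh-Dox with ASAH+ Etoh sets 2 uninduced groups side by side that differ in both Dox and genotype. The fitted mean was higher in ASAH- Etoh-Dox for 5 of 10 chaperones, and the median log2 fold change was -0.0017, beside 0.016 over all genes tested, of which 53.2% were higher. Hspa5 differed by -0.0064 (SE 0.35) and Dnajb9 by -0.03 (SE 0.12) on the log2 scale, and Sdf2l1 had the highest difference, 0.49 (SE 0.34, edgeR adjusted p = 0.707). Without 1 mouse the value of Sdf2l1 ran from 0.28 to 0.69. By edgeR 0 of 10 passed, beside 0.0140 percent of all genes, and DESeq2 and limma-voom called 0 as well. At an unadjusted p under 0.05, 0 of 10 were higher, beside 5.08 percent, and 0 of 10 had groups that did not overlap, beside 3.09 percent. The median was -0.24 without ASAH- Etoh-Dox replicate 1 and 0.13 without ASAH+ Etoh replicate 1, the lowest and highest with 1 mouse left out. The sign for Hyou1 (0.011) and Pdia4 (0.0030) changed with the scaling and the tool. The 95% interval for Hspa5, -0.76 to 0.75, leaves room for a difference in either direction.

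**Figure D4:**
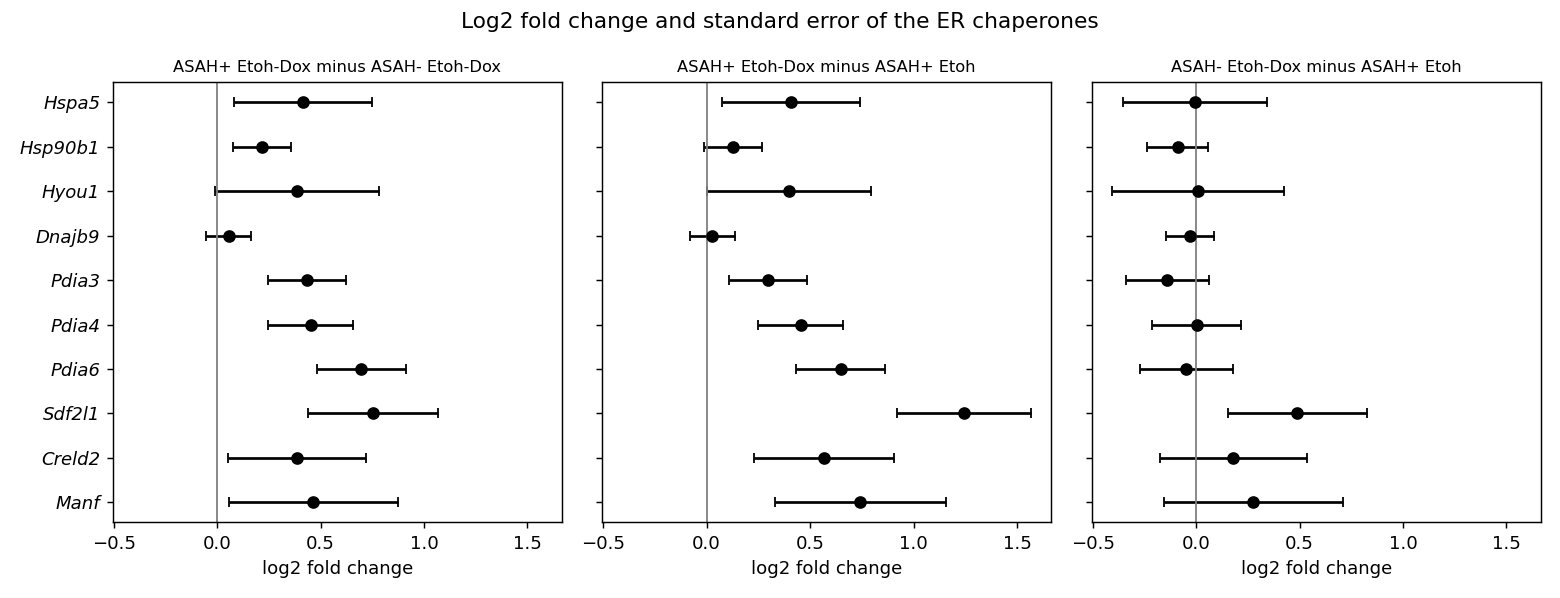
Fitted log2 fold change of each of the 10 ER chaperones (points) with its SE (bars) in the 3 comparisons. All 10 points lie above 0 in both comparisons of ASAH+ Etoh-Dox, from 0.03 for Dnajb9 to 1.24 for Sdf2l1, and around 0 between the uninduced groups.

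By edgeR, 2 of 14317 genes passed in each comparison, while DESeq2 on all 13 mice called 12, 98 and 149 of 28532 genes with a p-value. Not all of these genes had an adjusted p, and a gene without an adjusted p could not be called. On a data set simulated for ASAH+ Etoh-Dox against ASAH- Etoh-Dox, DESeq2 made more false calls than its threshold allows, and edgeR and limma-voom did not. Its counts were drawn a single time, with the spread that edgeR fitted, and only for genes that passed the count filter. That setting is not the setting of the DESeq2 fits here, so it does not decide which calls are right. Besides Asah1, the gene Sod1 passed in both comparisons of ASAH+ Etoh-Dox, and mt-Co2 and mt-Co3 passed between the uninduced groups, all by edgeR. These 3 were named after their values were seen. Sod1, the cytosolic superoxide dismutase, rose by 0.69 (SE 0.09) against ASAH- Etoh-Dox and by 1.02 (SE 0.09) against ASAH+ Etoh on the log2 scale (edgeR adjusted p = 0.0212 and 0.000197).

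Mice of the same group differed from each other to different extents for the 10 genes. Within ASAH- Etoh-Dox the highest mouse was 4.05 times the lowest for Manf, 4.00 times for Hyou1 and 2.92 times for Hspa5, replicate 1 being the highest each time. Within ASAH+ Etoh-Dox it was 2.90 times the lowest for Sdf2l1, 2.47 times for Manf and 1.06 times for Dnajb9, and within ASAH+ Etoh 2.09 times for Manf and 1.40 times for Sdf2l1 and for Dnajb9. The SD of log2 CPM within groups was 0.65 for Manf, 0.62 for Hyou1 and 0.53 for Hspa5, against a median of 0.24 over all genes tested, and was above that median for 8 of 10 chaperones, all but Hsp90b1 and Dnajb9. Among genes of like level, 98.4% had a smaller SD than Manf, 97.8% a smaller SD than Hyou1 and 57.6% a smaller SD than Dnajb9.

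Apart from Dnajb9, the chaperones varied together from mouse to mouse. Over the 36 pairs without Dnajb9, Pearson's r of log2 CPM across the 13 mice ran from 0.64 to 0.96 with a median of 0.82, and Spearman's rho from 0.58 to 0.95. After each group was centred on its own mean, r ran from 0.55 to 0.97 with a median of 0.79. The 9 pairs with Dnajb9 had r from 0.011 to 0.42. These are descriptions over 13 mice that all ate ethanol, with no test. Pearson's r was 0.91 to 0.96 among Hspa5, Hyou1, Creld2 and Manf, 0.89 to 0.95 among Pdia3, Pdia4 and Pdia6, and 0.64 to 0.85 between these sets, which were named after their values were seen. Hsp90b1 had r = 0.96 with Pdia3 and 0.91 with Pdia4, but 0.78 with Pdia6 and 0.77 to 0.84 with the genes of the other set. ASAH- Etoh-Dox replicate 1 shows the difference, being the highest mouse for Hspa5, Hyou1 and Manf but 202 CPM for Pdia6, below 3 induced mice.

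**Figure D5:**
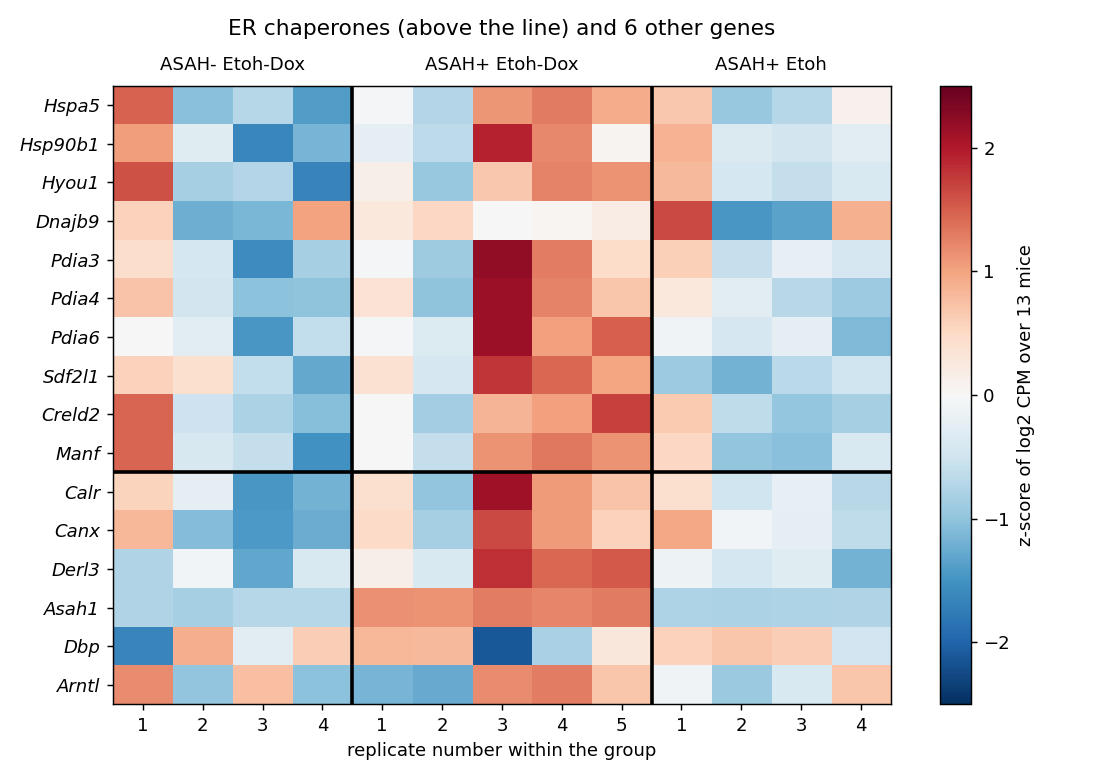
Each mouse's log2 CPM as a z-score across the 13 mice for the 10 ER chaperones (above the line) and for Calr, Canx, Derl3, Asah1, Dbp and Arntl (below the line). Replicates 3, 4 and 5 of ASAH+ Etoh-Dox and replicate 1 of ASAH- Etoh-Dox are high for most chaperones, and ASAH+ Etoh replicate 1 is above the mean for all but Pdia6 and Sdf2l1, while Dnajb9 follows no such pattern.

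Genes outside the 10 were ranked by Pearson's r between their log2 CPM and the mean z-score of the chaperones over the 13 mice. The highest were Rpn1 (r = 0.95, rho = 0.88), Dnajb11 (0.94, 0.91), Calr (0.93, 0.92), Gm34777 (0.93, 0.90), Canx (0.92, 0.89), Lsr (0.89, 0.91), Ero1lb (0.88, 0.83), 1810017P11Rik (0.87, 0.90), Cyb5b (0.87, 0.89) and Gm42755 (0.87, 0.88). Of these, Rpn1 is a subunit of oligosaccharyltransferase, Dnajb11 a BiP cochaperone, Calr and Canx the lectin chaperones calreticulin and calnexin, and Ero1lb an oxidase for disulfide isomerases. The lowest were Polg (r = -0.91, rho = -0.86), Sh2b3 (-0.91, -0.91), Tbx20 (-0.89, -0.83), Cnrip1 (-0.88, -0.91) and Traf3ip1 (-0.88, -0.80). These values come from the same mice and carry no test. The 10 sensors, proteases and transcription factors of the response had r on both sides of 0. It was 0.63 for Atf6b, 0.62 for Creb3l2, 0.51 for Eif2ak3 (PERK), 0.46 for Ern1 (IRE1), -0.07 for Xbp1, -0.07 for Mbtps1, -0.15 for Mbtps2, -0.34 for Creb3l3, -0.35 for Atf6 and -0.58 for Creb3, and gene-level counts do not tell spliced from unspliced Xbp1.

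Of the other listed genes, 6 held the same element in a promoter window: Calr, Canx, Dnajc3, Ero1lb (Ero1b in RefSeq), Derl3 and Syvn1. Derl3, a subunit of the degradation complex that exports misfolded protein from the ER, holds it at -156 to -138 from the RefSeq start, or -171 to -153 from the GENCODE start, on the opposite strand (chr10:75893237-75893265, minus strand, GRCm38.p6).
Derl3: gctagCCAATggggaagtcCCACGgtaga
Derl3 was at 0.32, 1.12, 0.082 and 0.64 CPM in ASAH- Etoh-Dox mice 1 to 4, at 1.60, 0.65, 25.6, 13.6 and 16.3 CPM in ASAH+ Etoh-Dox mice 1 to 5, and at 1.01, 0.57, 0.74 and 0.12 CPM in ASAH+ Etoh mice 1 to 4. The 3 high mice are the induced mice that were also high for Pdia6, and the other 10 mice were at 1.60 CPM or below. The log2 difference was 4.37 (SE 1.06) against ASAH- Etoh-Dox and 4.19 (SE 1.06) against ASAH+ Etoh (edgeR adjusted p = 1.00 and 0.473). The call depended on the tool. Against ASAH- Etoh-Dox DESeq2 called Derl3 with all 13 mice (DESeq2 adjusted p = 0.0193) and with the mice of both groups alone (0.0954). Against ASAH+ Etoh it gave no adjusted p with all 13 mice and 0.0142 with the mice of both groups alone, while limma-voom gave 0.999 and 0.748 in these comparisons.

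The other lists of the pathway also had 0 genes called by edgeR or limma-voom in each comparison. With all 13 mice DESeq2 called Derl3 against ASAH- Etoh-Dox and Hspa4, Hsp90ab1 and Dnaja3, which were lower, against ASAH+ Etoh. The counts of all genes called by this fit are given above, beside Sod1. Many genes had no adjusted p in it and so could not be called. Against ASAH+ Etoh these were 22 of 35 other ER chaperones and folding enzymes, 10 of 19 degradation genes, 10 of 16 translocon and signal peptidase genes, 7 of 10 sensors and factors, 15 of 15 entries of the ATF4 and CHOP arm, 7 of 12 cytosolic heat shock genes, 1 of 8 mitochondrial chaperones and 7 of 10 clock genes. The ATF4 and CHOP arm is a list of 14 genes, Ddit3 being counted under more than 1 gene id. With the mice of both groups alone DESeq2 called Derl3 in both comparisons of ASAH+ Etoh-Dox and Nupr1 against ASAH+ Etoh, where it called 114 of 27379 genes. Counts at an unadjusted p under 0.05 by edgeR are given as higher and lower. Over all genes tested these were 1.29 and 1.57 percent against ASAH- Etoh-Dox, 4.05 and 3.24 percent against ASAH+ Etoh, and 5.08 and 4.11 percent between the uninduced groups. Of 34 other ER chaperones and folding enzymes, 4 and 0 differed against ASAH- Etoh-Dox, 2 and 0 against ASAH+ Etoh, a share near that of all genes, and 1 and 0 between the uninduced groups. Their median log2 fold changes were 0.04, 0.05 and 0.014. The 4 were Calr (0.42, SE 0.18), Canx (0.24, SE 0.11), Dnajc3 (0.31, SE 0.13) and Ero1lb (0.43, SE 0.19), and Ppib had the smallest p against ASAH+ Etoh (0.32, SE 0.11) and Cnpy3 between the uninduced groups (0.28, SE 0.13). Of 19 genes of ER-associated degradation, 2 and 0, 2 and 0, and 0 and 2 differed, with medians of 0.08, 0.08 and -0.0056, and the 2 against ASAH- Etoh-Dox were Derl3 and Sel1l (0.34, SE 0.09). Edem3 had the smallest p between the uninduced groups (-0.32, SE 0.11). Of 16 translocon and signal peptidase genes, 1 and 1, 1 and 0, and 0 and 0 differed, with medians of -0.02, 0.10 and 0.09. The smallest p was that of Spcs1 against ASAH- Etoh-Dox (-0.16, SE 0.06) and between the uninduced groups (0.14, SE 0.07), and that of Sec11c against ASAH+ Etoh (0.30, SE 0.11).

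Of 10 sensors, proteases and transcription factors of the response, 1 and 1, 0 and 1, and 1 and 0 differed, with medians of 0.0066, 0.03 and 0.03. Ern1, the gene of IRE1, had a log2 difference of 0.33 (SE 0.15) against ASAH- Etoh-Dox, and Atf6 of -0.23 (SE 0.09) against ASAH+ Etoh. Creb3l3 had 0.23 (SE 0.10) between the uninduced groups. The PERK arm was represented by 12 genes of ATF4 and CHOP, of which 0 and 0, 1 and 0, and 0 and 0 differed, with medians of 0.05, 0.18 and 0.17. Among these Nupr1 had 1.13 (SE 0.43) against ASAH+ Etoh, at group means of 1.20 and 0.55 CPM, and 0.96 (SE 0.45) between the uninduced groups, while Fgf21 had the smallest p against ASAH- Etoh-Dox (-0.57, SE 0.41).

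Chaperones of other compartments had fitted medians below 0. Of 11 cytosolic heat shock genes, 0 and 0, 0 and 3, and 1 and 1 differed, with medians of -0.04, -0.32 and -0.25. The 3 lower against ASAH+ Etoh, beside 3.24 percent of all genes, included Hspa4 (-0.22, SE 0.07; DESeq2 adjusted p = 0.0661 with all 13 mice and 0.333 with both groups alone), which also had the smallest p between the uninduced groups (-0.18, SE 0.08). Against ASAH- Etoh-Dox it was that of Hsf1 (-0.12, SE 0.11). Of 8 mitochondrial chaperones, 0 and 0, 0 and 2, and 0 and 0 differed, with medians of -0.07, -0.09 and -0.04, and Dnaja3 had -0.15 (SE 0.06) against ASAH+ Etoh (DESeq2 adjusted p = 0.0964 with all 13 mice and 0.382 with both groups alone). Grpel1 had the smallest p against ASAH- Etoh-Dox (-0.15, SE 0.08) and Clpp between the uninduced groups (0.25, SE 0.13).

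Clock genes varied widely from liver to liver. The log2 ratio of Dbp to Arntl, genes of opposite phase, was -0.96, 6.58, 1.82 and 6.21 in ASAH- Etoh-Dox mice 1 to 4. It was 6.76, 6.91, -1.66, 0.15 and 2.72 in ASAH+ Etoh-Dox mice 1 to 5, and 4.48, 6.14, 5.09 and 1.60 in ASAH+ Etoh mice 1 to 4. The lowest 3 ratios belong to ASAH+ Etoh-Dox replicates 3 and 4 and ASAH- Etoh-Dox replicate 1, which were the highest mice for Hspa5. Not every mouse fell in this order, since ASAH- Etoh-Dox replicate 3 had a ratio of 1.82 and the lowest mean chaperone z-score of all 13 mice (-1.03). Over the 13 mice Pearson's r with that score was 0.72 for Npas2, 0.72 for Clock, 0.66 for Arntl, 0.42 for Nr1d1, -0.14 for Per1, -0.55 for Per2, -0.55 for Nr1d2, -0.63 for Tef, -0.66 for Dbp and -0.67 for Per3. Of 10 clock genes, 0 differed at an unadjusted p under 0.05 in any comparison by edgeR, Npas2 having the smallest p in the 2 comparisons with ASAH+ Etoh (log2 2.55, SE 1.43, and 2.67, SE 1.47) and Clock against ASAH- Etoh-Dox (0.28, SE 0.30). With the ratio as a covariate in edgeR, the median chaperone log2 fold change was 0.41 in place of 0.42 against ASAH- Etoh-Dox, 0.25 in place of 0.43 against ASAH+ Etoh and -0.0922 in place of -0.0017 between the uninduced groups. The number of chaperones higher at an unadjusted p under 0.05 was 5 in place of 4 against ASAH- Etoh-Dox and 2 in place of 3 against ASAH+ Etoh, where Sdf2l1 had a log2 fold change of 1.02 (edgeR adjusted p = 0.268). The share of all genes was 1.82 in place of 1.29 percent and 4.61 in place of 4.05 percent. The time of collection is not in the labels, and its part in the result was not tested further.

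Levels of markers of other cell types were compared between groups as well. The summed level of 6 sinusoidal endothelial markers, Clec4g being the most abundant, was 144, 125, 231 and 158 CPM in ASAH- Etoh-Dox mice 1 to 4. It was 124, 131, 108, 149.9 and 133 CPM in ASAH+ Etoh-Dox mice 1 to 5, and 191, 139, 172 and 176 CPM in ASAH+ Etoh mice 1 to 4. Of the 6 markers, 4 were lower in ASAH+ Etoh-Dox at an unadjusted p under 0.05 against ASAH- Etoh-Dox, beside 1.57 percent of all genes, and 5 against ASAH+ Etoh, beside 3.24 percent. The 5 red cell genes, Hbb-bs being the most abundant, summed to 231, 752, 1714 and 215 CPM in ASAH- Etoh-Dox mice 1 to 4, to 689, 241, 871, 355 and 646 CPM in ASAH+ Etoh-Dox mice 1 to 5, and to 135, 159.8, 175 and 192 CPM in ASAH+ Etoh mice 1 to 4. All 5 were higher at an unadjusted p under 0.05 in both Dox groups against ASAH+ Etoh, beside 4.05 percent of all genes for ASAH+ Etoh-Dox and 5.08 percent for ASAH- Etoh-Dox. By edgeR and limma-voom 0 markers of any cell type passed an adjusted p of 0.1, whereas DESeq2 with all 13 mice called 3 and 4 red cell genes in these comparisons and 2 hepatocyte markers in each (Apob and Cps1 in the first, Apob and Apoa1 in the second). With the mice of both groups alone DESeq2 called 5 and 2 red cell genes, 1 and 2 hepatocyte markers, Clec4g and Oit3 in the first and Ecm1 in the second. In these fits DESeq2 called 114 of 27379 genes with a p-value in the first comparison and 168 of 26803 in the second, not all having an adjusted p. Its counts over all genes with all 13 mice are given above. In the first comparison DESeq2 with all 13 mice gave no adjusted p for 6 of 6 endothelial, 2 of 5 red cell, 6 of 7 stellate, 4 of 8 Kupffer and 10 of 11 plasma and B cell markers, nor for any cholangiocyte, neutrophil, T and NK cell or acinar marker. No marker of either list was at 0 in every mouse, and the part of blood and endothelium in the chaperone values was not tested.

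Stellate cell markers (7 genes, Ecm1 the most abundant) summed to means of 278, 239 and 230.3 CPM in ASAH- Etoh-Dox, ASAH+ Etoh-Dox and ASAH+ Etoh. At an unadjusted p under 0.05 by edgeR, 3 of 7 were lower in ASAH+ Etoh-Dox than in ASAH- Etoh-Dox (all genes 1.57 percent), 0 passed it between ASAH+ Etoh-Dox and ASAH+ Etoh, and 4 were higher in ASAH- Etoh-Dox than in ASAH+ Etoh (all genes 5.08 percent). Kupffer cell markers (8 genes, Cd5l the most abundant) summed to means of 594, 479 and 389 CPM. Of the 8, 5 were higher in ASAH- Etoh-Dox than in ASAH+ Etoh (all genes 5.08 percent), with 0 in the comparisons of ASAH+ Etoh-Dox. The Kupffer sum was 919 CPM in ASAH- Etoh-Dox replicate 3, against 316 to 626 in the other 12 mice. Of the 8 hepatocyte markers, 1 was lower against ASAH- Etoh-Dox (all genes 1.57 percent) and 2 against ASAH+ Etoh (all genes 3.24 percent). Between the uninduced groups 1 was higher and 1 lower (all genes 5.08 and 4.11 percent). Cholangiocyte markers (5 genes, Spp1) summed to means of 49.6, 39.4 and 44.4 CPM, neutrophil markers (5 genes, Csf3r) to 3.56, 2.92 and 2.99 CPM, and T and NK cell markers (5 genes, Nkg7) to 2.07, 2.38 and 1.41 CPM. The cholangiocyte sum was 79.1 CPM in ASAH- Etoh-Dox replicate 1, against 31.5 to 51.9 in the other 12 mice, and the T and NK cell sum was 4.32 CPM in ASAH+ Etoh-Dox replicate 2, against 1.11 to 2.40. Of these 3 lists, 1 T and NK cell marker was higher at that p in each Dox group against ASAH+ Etoh. The share of all genes was 4.05 percent for ASAH+ Etoh-Dox and 5.08 percent for ASAH- Etoh-Dox. Plasma and B cells make much ER, and their 11 markers summed to 161 to 367 CPM, most of it Sdc1, which hepatocytes also express. Of the 9 tested, 0 passed that p against ASAH- Etoh-Dox. Against ASAH+ Etoh, 2 were higher in ASAH+ Etoh-Dox (all genes 4.05 percent) and 3 in ASAH- Etoh-Dox (all genes 5.08 percent). Pancreas, another tissue rich in ER chaperones, can be carried over at dissection. Its 13 acinar markers summed to 5.86 to 12.6 CPM, nearly all of it Cela1. The highest sum was that of ASAH- Etoh-Dox replicate 1, in which 8 of 13 had a count, against 2 to 5 in the other 12 mice, and which was also the highest mouse for Hspa5, Hyou1 and Manf. Clps, Pnlip and Try4 were at 0 in every mouse and 9 of 13 were at 3 counts or fewer in every mouse, and the part of carried-over pancreas in the chaperone values was not tested.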

How the data were processed

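The deposited table holds estimated counts per gene that the authors made with salmon and tximport from GENCODE transcripts (GRCm38.p6) and rounded, 1 column for each of 13 mice. Of 53392 genes, 14317 passed filterByExpr with the 3 groups. Counts were fitted in edgeR 4.0.16 (R 4.3.3; TMM, robust quasi-likelihood, 3 group means), with Benjamini-Hochberg adjustment over all genes tested and a threshold of 0.1. SE is the log2 fold change over the root of F, and 95% intervals use the t quantile at the degrees of freedom of the fit. For single genes an exact permutation test (two-sided) compared group means of log2 CPM, prior count 2. Alternatives were DESeq2 1.42.0, limma-voom 3.58.1, other scalings, filters, a replicate block, a clock covariate and each mouse left out. The fits were tested on a simulated data set (changes in ASAH+ Etoh-Dox against ASAH- Etoh-Dox only), where DESeq2 alone made more false calls than the threshold allows. It was drawn with the spread fitted by edgeR for the genes tested, and so does not decide between the tools. The members and lists were chosen with earlier results of these data known. The genes named are the 10 members, Asah1, from each other pathway list those past the threshold or otherwise the gene with the smallest p per comparison (at most 3), each marker list's most abundant gene and markers at 0, and the 10 most and 5 least like the members. Calr, Canx, Ero1lb, Sel1l, Hsp90ab1, Apob, Cps1, Apoa1 and Oit3 were named to complete small counts after their values were seen. Syvn1 was named for its promoter element, the 10 sensors and factors and the 10 clock genes for their r, and Sod1, mt-Co2 and mt-Co3 because they were called, also after their values were seen. Names matched GENCODE for 53355 of 53392 genes.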

Additional observations from a re-analysis of the deposited data

Results flagged for a closer look

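Of 42 gene and group sets examined, 6 held a mouse far above the rest of its group, its gap to the nearest mouse exceeding Dixon's 95% limit, which chance exceeds in about 1 of 20 sets. In ASAH- Etoh-Dox replicate 1, Hspa5 was at 811 CPM (next mouse 360.3), Hyou1 at 183 CPM (next 67.9) and Creld2 at 25 CPM (next 11.8). In ASAH+ Etoh replicate 1, Hsp90b1 was at 889 CPM (next 743), Hyou1 at 131 CPM (next 78.9) and Creld2 at 18.4 CPM (next 11.3). The genes vary together, so these 6 are not independent. The log2 ratio of Dbp to Arntl was -0.96 in the ASAH- mouse and 4.48 in the ASAH+ Etoh mouse, and its part in these values was not tested.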

How the results depend on the processing

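The cause of each change below was not tested unless stated. Genes called in the order ASAH+ Etoh-Dox against ASAH- Etoh-Dox, ASAH+ Etoh-Dox against ASAH+ Etoh, and ASAH- Etoh-Dox against ASAH+ Etoh were 2, 2 and 2 by edgeR, 12, 98 and 149 by DESeq2 on all 13 mice and 11, 114 and 168 by DESeq2 on the groups compared. The first count was 1 and the last 0 with edgeR on the groups compared and with the replicate block, the middle count was 4 with no count filter, the last count was 1 with the clock covariate and 0 at an adjusted p of 0.05, and the first and middle were 1 with Asah1 left out, by construction. Leaving out 1 mouse gave 1 to 2, 2 to 8 and 0 to 2. Chaperones called were 0 except for 1 against ASAH+ Etoh under each DESeq2 fit (Pdia6 at log2 0.64, Sdf2l1 at 1.23). Chaperones higher at an unadjusted p under 0.05 against ASAH- Etoh-Dox were 4, but 5 with the clock covariate, 3 by limma-voom and with no count filter, 1 with edgeR on the groups compared, 1 with the replicate block and 1 to 9 without 1 mouse. Against ASAH+ Etoh they were 3, but 5 by DESeq2 and 4 by edgeR on the groups compared, 2 by limma-voom, with DESeq2 size factors, with no count filter and with the clock covariate, 1 with the replicate block and 2 to 6 without 1 mouse, the highest without ASAH+ Etoh-Dox replicate 2. The share of all genes higher at that p was 0.636 to 1.82 percent over 12 settings and 0.822 to 2.48 percent without 1 mouse in the first comparison, and 2.16 to 4.61 and 2.73 to 4.83 percent in the second. The labels do not say whether replicate numbers pair mice. After centring on group means, same-numbered mice had mean correlations of -0.133, 0.057 and -0.062, beside 0.033, -0.014 and 0.021 for other pairs. The median chaperone log2 fold change against ASAH- Etoh-Dox was 0.41 to 0.46 over 12 settings and 0.24 to 0.80 without 1 mouse. Against ASAH+ Etoh it was 0.25 to 0.44, and 0.35 to 0.61 without 1 mouse. Between the uninduced groups it was -0.0922 to 0.0000676, and -0.24 to 0.13 without 1 mouse. All 10 chaperones stayed higher in both comparisons under the 12 settings.

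The log2 fold change of Hyou1, ASAH- Etoh-Dox minus ASAH+ Etoh, and the log2 fold change of Pdia4, ASAH- Etoh-Dox minus ASAH+ Etoh, turned to -0.00738 and -0.0147 by DESeq2 on all mice, to -0.00776 and -0.0148 by DESeq2 on the groups compared, to -0.16 and -0.0110 by limma-voom, to -0.00522 and -0.0118 with DESeq2 size factors, to -0.00425 and -0.00613 with no filter, to -0.0896 and -0.00435 with the replicate block, to -0.28 and -0.0842 with the clock covariate, and to -0.00680 and -0.0129 with Asah1 left out. The value for Pdia4 was -0.00626 with edgeR on the groups compared. Without 1 mouse, in the same comparison, Hspa5 ran from -0.50 to 0.17, Hyou1 from -0.61 to 0.25, Dnajb9 from -0.11 to 0.0673, Pdia4 from -0.18 to 0.0929, Pdia6 from -0.15 to 0.0688, Creld2 from -0.25 to 0.42 and Manf from -0.29 to 0.55, and Dnajb9 against ASAH+ Etoh from -0.0474 to 0.12. Every chaperone had at least 129 counts in every mouse.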
